A study of Homo sapiens with 9 samples.

Results

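HCT116 cells in which RNF40 was knocked down were compared directly with HCT116 cells in which transglutaminase 2 (gene TGM2, protein TG2) was knocked down. The comparison used the 3 siRNF40 and the 3 siTG2 libraries among the 9 libraries of the study, and the 3 siControl libraries served to say on which side of the control a gene lay. Of 63677 genes listed, 17663 had a mean of at least 10 normalized reads over the 9 libraries and were tested. Within them, 1388 genes (7.86%) moved in opposite directions from siControl: 909 were called higher in siRNF40 and lower in siTG2, and 479 were called lower in siRNF40 and higher in siTG2. A call was an adjusted p under 0.05 in limma, a linear model fitted to all tested genes at once. Every group was of the same human colon carcinoma line, described as wild type in the labels, and was taken 48 h after transfection of siRNA with a lipid reagent. Polyadenylated RNA was sequenced. The siRNA sequences were not analysed here, and the labels do not say whether replicates were separate cultures, so p-values measure the spread between these libraries, which may be technical.

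RNF40 is a RING-type ubiquitin ligase that works with its partner RNF20 to attach a single ubiquitin to histone H2B, a mark placed on transcribed genes together with the RAD6-type conjugating enzymes UBE2A and UBE2B and the PAF1 complex. TG2 is a calcium-dependent enzyme that cross-links proteins through glutamine residues and can also attach serotonin to glutamine, including glutamine at position 5 of histone H3, the modification that the title of the series abbreviates as H3Q5ser. Both therefore act on chromatin of active genes, and a direct comparison shows where loss of one leaves an RNA level that differs from loss of the other.

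The libraries held 29161285 to 35743918 reads in genes. Normalized totals were 32695081 to 33219625 in siRNF40 and 28807588 to 29454845 in siTG2, and 25296 to 25548 genes had a read in siRNF40 against 27123 to 27602 in siTG2. Of 12 colon epithelial markers, 10 passed the level tested, KRT8 and KRT18 among them, while VIL1 and LGALS4 stayed under it. Their summed level was 147066 to 173079 normalized reads in siRNF40, 87713 to 99771 in siTG2 and 99895 to 109497 in siControl. Of 11 fibroblast markers 3 passed, with DCN, LUM and POSTN at 0 in all 9 libraries. Of 13 leukocyte and red cell markers only ITGAM passed, with CD3E and CD3D at 0. RN7SL2, a small cytoplasmic RNA that lacks a poly(A) tail, had 7842, 2759.9 and 2689 normalized reads in siRNF40 and 819.6, 2317 and 1505 in siTG2, so siRNF40 replicate 1 stood above the other 8 libraries.

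Both targets were lowest in their own group. RNF40 (chr16:30773066-30787628, plus strand, in the coordinates of the deposited tables, which are not those of GRCh38) had 535, 497 and 528 normalized reads in siRNF40, 2249, 2506 and 2158 in siTG2 and 3004, 2784 and 2565 in siControl. Its siRNF40 level was 22.6% of that in siTG2, a log2 difference of -2.14 (SE 0.08, limma adjusted p = 5.2e-13). TGM2 (chr20:36756863-36794980, minus strand, in the same coordinates) had 839, 829.6 and 963 in siRNF40, 59.4, 121 and 155 in siTG2 and 559, 702 and 554 in siControl. Its siTG2 level was 12.7% of that in siRNF40, a log2 difference of 3.07 (SE 0.23, limma adjusted p = 2.1e-09). The libraries of these groups did not overlap for either gene. An exact two-sided permutation test of each gene alone gave p = 0.1, the smallest value that 3 libraries against 3 can give.

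An siRNA can also pair through bases 2 to 8 of its guide strand with other transcripts, much as a microRNA does. An earlier examination of these same data had singled out 2 words of 7 bases, GTCTTCA among transcripts low after RNF40 knockdown and GCGCCCT among those low after TG2 knockdown, and each occurs in the transcript of the gene that was targeted. The sites below are shown because they sit in both targets and in genes at both ends of the comparison. RNF40 also holds GTCTTCA at 2 places in its coding sequence, which are not shown. The words are in capitals and 10 bases are given on each side, 5′ to 3′ along the transcript, from GENCODE 29 on GRCh38.
RNF40 3′ UTR (chr16:30776263-30776289, plus strand): ctcctcgtggGTCTTCAtacctaataa
PIK3AP1 3′ UTR, the first site (chr10:96595515-96595541, minus strand): aagactcacaGTCTTCAgcctgttaat
PIK3AP1 3′ UTR, the second site (chr10:96595495-96595521, minus strand): tgttaatgatGTCTTCAtgttgagttt
C1orf116 3′ UTR (chr1:207018631-207018657, minus strand): gaacctcagaGTCTTCAcctataagac
EMP1 3′ UTR (chr12:13217111-13217137, plus strand): cctctaatgtGTCTTCAaaatataaag
DYNLRB1 3′ UTR (chr20:34540812-34540838, plus strand): gagctccggaGCGCCCTctcctcactt
TGM2 coding sequence (chr20:38139570-38139596, minus strand): caagtacgatGCGCCCTttgtctttgc

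PIK3AP1 was far lower in siRNF40 than in siTG2, while C1orf116 and EMP1, which hold the same word, were far higher in siRNF40. These genes were picked for display, so their number in each direction says nothing of the shares, which are given below. Genes named below that also hold the word in the 3′ UTR include CCNE2, PPARA, DLL4 and EGF, lower in siRNF40, and MACC1, higher in siRNF40. Whether an siRNA acted through any of these sites was not tested. A match is a run of letters and not a shown binding site.

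Most genes differed between the 2 knockdowns, and the calls were split evenly. In siRNF40, 4704 genes were higher (26.6% of those tested), and in siTG2, 4706 were higher (26.6%), so that 53.3% were called. Differences of at least 2-fold among the called genes numbered 1005 toward siRNF40 (5.69%) and 1495 toward siTG2 (8.46%). For 58.3% of tested genes the 3 siRNF40 libraries did not overlap the 3 siTG2 libraries. The balance depends on how libraries are scaled. The authors' scaling set the median log2 difference of all genes at -0.01, and scaling each library to the same total instead moved it to -0.19, with 3278 genes higher in siRNF40 and 6324 higher in siTG2. Calls higher in siRNF40 then made up 34.1% of all calls. In bulk RNA, fewer cells of a type and less RNA per cell cannot be told apart.

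**Figure D1:**
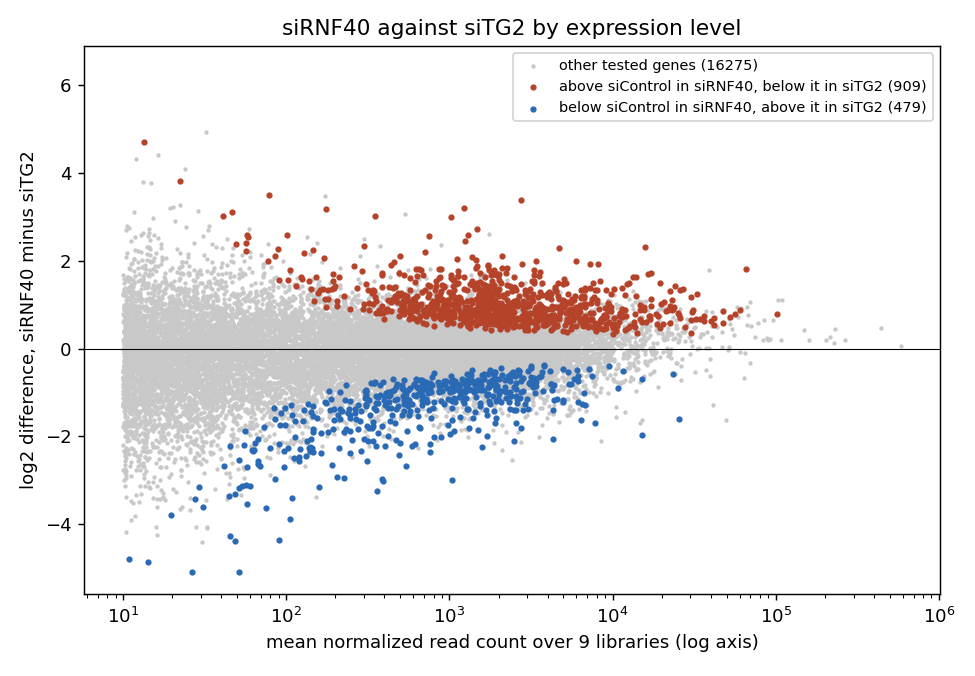
Each point is 1 of the 17663 tested genes, with its mean normalized read count over 9 libraries on a log axis and its log2 difference (siRNF40 minus siTG2) on the other. The 909 genes above siControl in siRNF40 and below it in siTG2 lie above 0, and the 479 genes of the reverse kind lie below 0.

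Level and direction were related. Of the 2254 genes whose mean reached 3000 normalized reads, 1061 were higher in siRNF40 and 658 in siTG2. Among the 2967 genes between 10 and 30, 154 were higher in siRNF40 and 344 in siTG2. The median log2 difference moved from -0.22 in that lowest class to 0.13 in the highest.

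Some genes at the ends of the direct comparison passed the test against siControl in 1 knockdown only, siRNF40 for KRTAP2-3 and RAB27B and siTG2 for DYNLRB1. KRTAP2-3, a hair keratin-associated protein with near-identical copies beside it, had 385, 371 and 536 normalized reads in siRNF40 and 42.4, 40.5 and 29.3 in siTG2, a log2 difference of 3.49 (SE 0.33, limma adjusted p = 5.1e-08). DYNLRB1, a light chain of cytoplasmic dynein, had 2417, 2638 and 2809 in siRNF40 and 345, 458 and 497 in siTG2 (log2 difference 2.61, SE 0.11, limma adjusted p = 1.1e-12). RAB27B, a small GTPase of secretory vesicles, had 18.4, 12 and 38.4 in siRNF40 and 217, 218 and 234 in siTG2 (log2 difference -3.38, SE 0.30, limma adjusted p = 1.7e-08). The naming rule took only genes whose libraries did not overlap between the knockdowns. The siControl means of KRTAP2-3, DYNLRB1 and RAB27B were 53.7, 2174 and 208.

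The opposite genes were chosen by their differences from siControl, so their values are given as a description and no test is attached to them. Both differences use the same 3 siControl libraries. Genes higher in siRNF40 and lower in siTG2 made up 5.15% of the tested genes and the reverse kind 2.71%. In the first kind the siRNF40, siControl and siTG2 libraries formed 3 separate ranges in 875 of 909 genes, and in the second in 447 of 479. The choice itself favours such separation, and its share over all tested genes was not counted. The median log2 difference between knockdowns was 0.93 for the first kind and -1.16 for the second. For the first kind the median was 0.45 for siRNF40 minus siControl and -0.45 for siTG2 minus siControl, and for the second it was -0.60 and 0.50. With equal library totals the counts were 514 and 975. The 514 were all among the 909, and the 479 were all among the 975. Leaving out siControl replicate 1 or siControl replicate 2 lowered the second count to 315 or 312.

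CPA4, a secreted carboxypeptidase, had the largest difference of the named opposite genes higher in siRNF40. It had 5711, 5860.1 and 6133 normalized reads in siRNF40, 1828, 1928 and 1728 in siControl and 539.8, 571 and 568 in siTG2, and the log2 difference between knockdowns was 3.40. The steps away from siControl were nearly equal, 1.69 and -1.71 on the log2 scale. C1orf116, known as an androgen-regulated gene, had 2279, 2322 and 2458 in siRNF40, 1158, 976 and 1033 in siControl and 303, 205 and 261 in siTG2. KRT80, a type II keratin of epithelial cells, had 2015, 2036 and 2468 in siRNF40, 637, 629 and 613 in siControl and 269, 304 and 236 in siTG2. In all 3 genes every siRNF40 library lay above every siControl library, and every siTG2 library below.

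LAMB3, the beta chain of the basement membrane laminin-332, had 24224, 23506 and 27896 normalized reads in siRNF40, 17294, 18284 and 16571 in siControl and 5111, 5151 and 4970.0 in siTG2. EMP1, a membrane protein of epithelial cells, had 8248, 7966 and 7582 in siRNF40, 4545, 4642 and 4536 in siControl and 1613, 1606 and 1607 in siTG2. Here the larger step was the loss in siTG2, -1.77 for LAMB3 and -1.51 for EMP1, beside gains of 0.53 and 0.79 in siRNF40. HYAL1, a hyaluronidase, had means of 552 ± 67.2 in siRNF40 and 108 ± 18 in siTG2 (SD, n = 3). MACC1, a regulator of MET expression in colon cancer, had 1355 ± 196 and 297 ± 54.7, with a siControl mean of 479.

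Mitochondrial genes were among them. CHCHD10, a protein of the mitochondrial intermembrane space, had 1949.9, 2085 and 2366 normalized reads in siRNF40, 1531, 1453 and 1336 in siControl and 327, 369 and 363 in siTG2. HSD17B10, a mitochondrial dehydrogenase that is also a subunit of mitochondrial RNase P, had 1906, 2095 and 2323 in siRNF40, 1302, 1251 and 1147 in siControl and 354, 384 and 410.5 in siTG2. Most of the distance in both came from the siTG2 side. Of the signalling genes, TNFSF18, the ligand of the receptor GITR, had means of 811 ± 72.9 in siRNF40 and 99.3 ± 9.6 in siTG2 (SD, n = 3), with log2 steps from siControl of 2.50 in siRNF40 and -0.52 in siTG2. NPW, the neuropeptide W precursor, had 1405 ± 125 and 242 ± 77.6. OR51B5, an olfactory receptor gene in the beta-globin region, had 394 ± 53.7 and 43.5 ± 10.3, but it overlaps HBG2 and HBE1 on the same strand and its reads cannot be told apart from theirs here.

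In the reverse direction, IFNE and CLDN2 had the largest differences among genes with a mean of at least 100. That filter favours genes high in 1 group. IFNE, CLDN2 and HCN4 passed it only through siTG2, with siControl means of 59.0, 87.2 and 69.3. OR51B5 and KRTAP2-3 passed it only through siRNF40, with siControl means of 90.6 and 53.7. IFNE, the type I interferon epsilon, had 8.16, 19.4 and 22.4 normalized reads in siRNF40, 59.6, 38 and 79.5 in siControl and 272, 229.7 and 225 in siTG2, a log2 difference between knockdowns of -3.89. It overlaps the noncoding gene MIR31HG on the same strand, so its reads are uncertain. CLDN2, a pore-forming claudin of leaky epithelia, had 20.4, 28.7 and 12.8 in siRNF40, 89.5, 98.7 and 73.3 in siControl and 229, 212 and 214 in siTG2. The 3 groups did not overlap in CLDN2 or in IFNE.

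PIK3AP1, an adaptor that links receptors to phosphoinositide 3-kinase and the gene with a pair of GTCTTCA sites shown above, had 62.2, 65.7 and 88.6 normalized reads in siRNF40, 321, 249.6 and 380.1 in siControl and 718, 669 and 665 in siTG2. LIN28A, which blocks maturation of let-7 microRNAs, had 31.6, 43.5 and 23.5 in siRNF40, 159, 147 and 138 in siControl and 310.0, 322 and 251 in siTG2. NES, the intermediate filament nestin, had 241, 316 and 273 in siRNF40, 626, 629 and 657 in siControl and 2165, 2541 and 1946 in siTG2. The step above siControl in siTG2 was 1.13 for PIK3AP1, 0.98 for LIN28A and 1.79 for NES, and none of the 3 had overlapping groups.

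Apart from NOTUM, given with the Wnt genes, the other named genes of this kind had a log2 difference of -2.97 to -2.57. CCNE2, cyclin E2 of the G1 to S transition, had means of 79.2 ± 7.85 in siRNF40, 454 ± 4.08 in siControl and 629 ± 67.2 in siTG2 (SD, n = 3), and NDUFAF6 and INTS8 lie over it on the other strand. SULT1C2, a sulfotransferase, had 54 ± 15.3 in siRNF40 and 417 ± 51.1 in siTG2. SLC7A8, a transporter of neutral amino acids, had 54.4 ± 17.2 and 413 ± 92.8. PEG10, an imprinted gene derived from a retrotransposon, had 143 ± 48.2 and 891 ± 20.7. For HCN4, a pacemaker channel, the gain in siTG2 was the larger step, with log2 steps of -0.72 in siRNF40 and 1.85 in siTG2. For GLDN, gliomedin, the loss in siRNF40 was the larger step, -1.99 against 0.67.

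**Figure D2:**
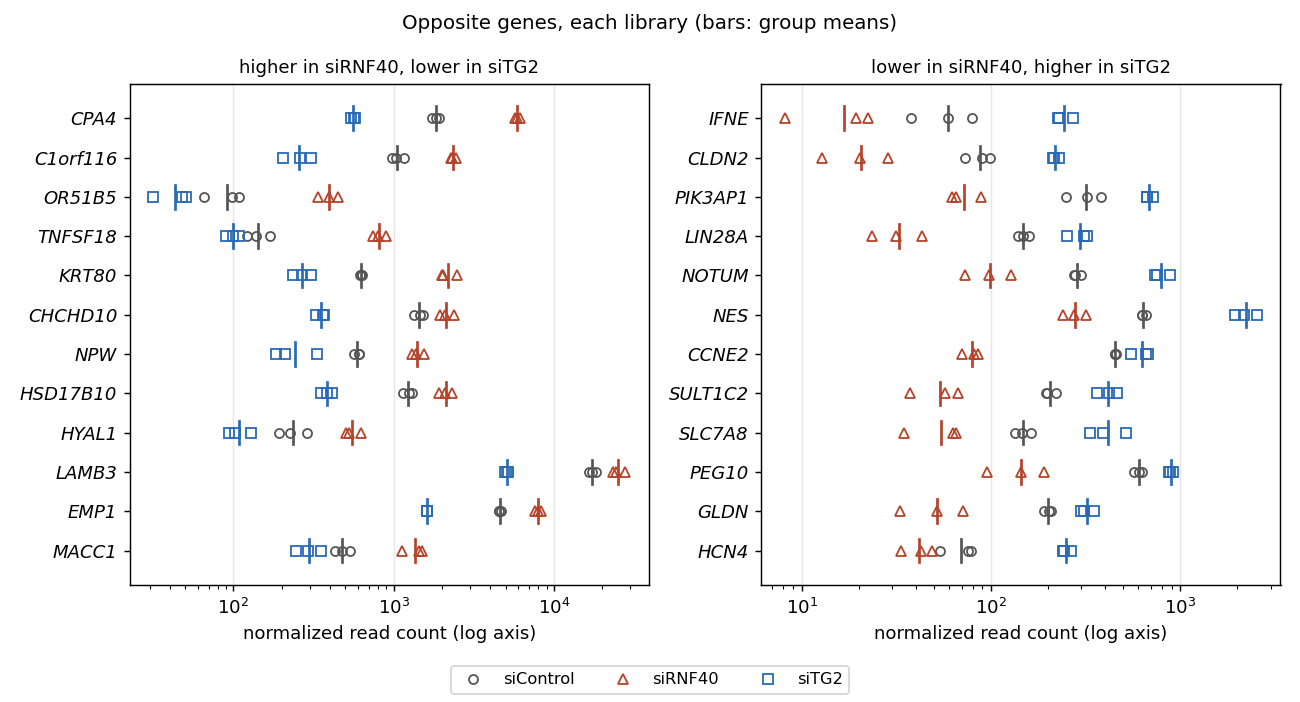
Normalized read counts on a log axis for the 12 named genes of each kind, with 1 point per library, a bar at each group mean and 3 libraries a group. The siRNF40 and siTG2 points lie on either side of the siControl points in every gene.

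Of these 24 named genes, 19 kept their opposite calls in each of 18 settings of scaling, filtering, pseudocount, test and left-out library. TNFSF18, CCNE2, PEG10 and HCN4 kept them in 15 of 18 and GLDN in 11 of 18. At the threshold itself, TRIML2, GRIN1 and LAD1 were the last genes inside, with larger adjusted p-values of 0.0496, 0.0496 and 0.0497. ESD and NDRG3, with RP11-47A8.5, were the first outside, with 0.0504, 0.0506 and 0.0504. TRIML2 had means of 701, 548 and 439.7 normalized reads in siRNF40, siControl and siTG2, and ESD had 3635, 3056 and 2665.

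A change of at least 2-fold on both sides of siControl was seen in 17 genes higher in siRNF40 and 41 genes lower in siRNF40. The genes in the rest of this paragraph were chosen from these 58 after their values were seen. ITGAX, an integrin alpha chain best known on myeloid cells, had 6.12, 17.6 and 5.34 normalized reads in siRNF40, 70.7, 57.9 and 75.4 in siControl and 178, 194 and 204 in siTG2. PPARA, a nuclear receptor that controls fatty acid oxidation, had 574, 679 and 526 in siRNF40, 1499, 1119.9 and 1414 in siControl and 2999, 2573 and 2808 in siTG2. DLL4, a Notch ligand, had 59.1, 58.3 and 49.1 in siRNF40, 165, 114 and 133 in siControl and 278, 326 and 281 in siTG2. The groups of all 3 were apart. SLC40A1, the iron exporter ferroportin, had 7.14, 12.9 and 16 in siRNF40, 43.1, 38 and 77.5 in siControl and 117, 105 and 96.8 in siTG2. EGF, the ligand of the EGF receptor, was near the floor in siRNF40 with 5.1, 0.925 and 10.7, and had 91.4, 105 and 101 in siTG2. GATA3, a transcription factor, went the other way with 98.9, 117 and 84.3 in siRNF40, 71.8, 46.5 and 35.1 in siControl and 24.5, 20.2 and 11.7 in siTG2.

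Opposite genes of the 2 kinds differed in build, a property the choice did not use directly. They also differed in level, with medians of 1980 normalized reads for those higher in siRNF40 and 730 for those lower. The median of all tested genes was 489, and build was not compared at matched level. Among protein-coding genes, the median genomic span was 23.0 kb for those higher in siRNF40, 66.7 kb for those lower in siRNF40 and 32.1 kb for all tested. The median 3′ UTR held 743 bases, 1745 bases and 1003 bases in the same order, and the median GC content of the coding sequence was 56.8%, 50.7% and 52.8%. Of all 13678 protein-coding genes tested, 861 were of the first kind and 454 of the second. When protein-coding genes were cut into sixths by span, the shortest ones reached 8.49 kb, and of these 7.81% were of the first kind and 1.62% of the second. In the sixth with the longest span (from 111 kb), the shares were 3.38% and 6.36%. The median log2 difference of all genes went down at each step from 0.17 in the shortest sixth to -0.25 in the longest. Against siControl, the medians at the ends were 0.18 and -0.20 for siRNF40 and -0.01 and 0.01 for siTG2. Chromosome 19, whose tested protein-coding genes had a median span of 16.2 kb, held 98 of the first kind (9.85% of its 995) and 14 of the second (1.41%).

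**Figure D3:**
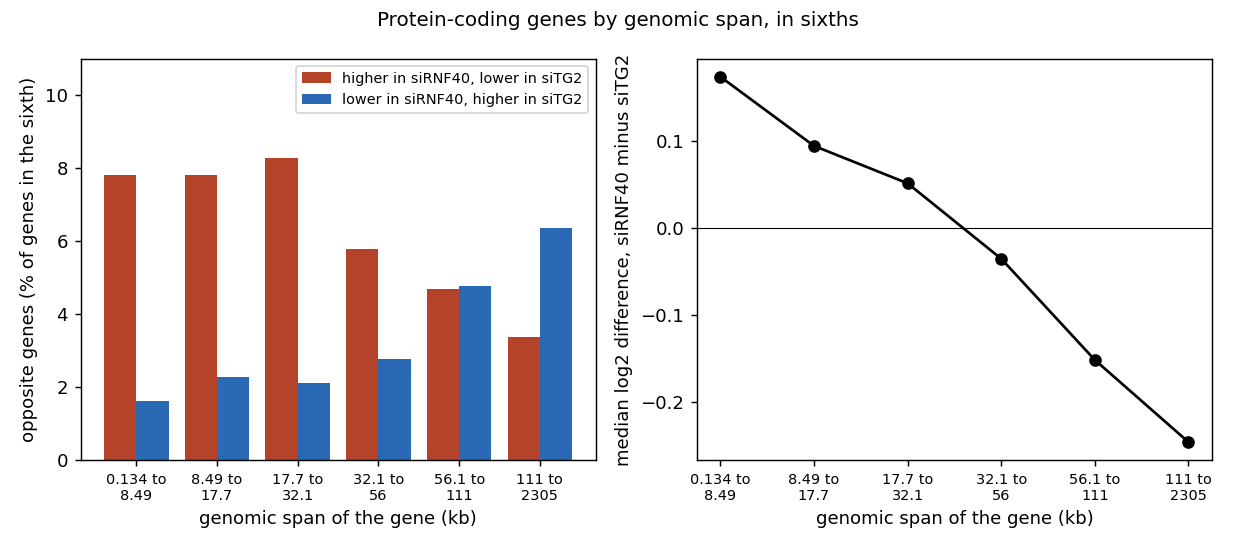
Protein-coding genes in sixths of genomic span (kb). Bars give the percent of each sixth that was opposite in either direction, and the line gives the median log2 difference (siRNF40 minus siTG2), which runs from 0.17 to -0.25.

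The word GTCTTCA was searched on the transcript strand of the annotated 3′ UTRs of at least 50 bases, which 12823 of 13678 protein-coding genes had (93.7%). It was present in 48 of 826 genes higher in siRNF40 (5.81%) and in 128 of 447 lower in siRNF40 (28.6%), against 12.4% of all. GCGCCCT was present in 5.69% of the first kind, 1.57% of the second and 2.77% of all. The median GC content of the 3′ UTR was 49.4%, 39.4% and 43.1% in the same order, and the shares were not adjusted for it. In the third of genes with the longest 3′ UTRs, GTCTTCA was present in 16.2% of the first kind, 43.2% of the second and 26.4% of all, which is a gap of the same sign. Since both words had been picked on these data, the shares are a description. Without the genes that hold either word in the 3′ UTR or coding sequence, 13008 tested genes were left, with 664 opposite genes of the first kind and 245 of the second. The direct comparison then had 3589 genes higher in siRNF40 and 2759 higher in siTG2, so that 56.5% of calls were higher in siRNF40.

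Gene lists are described by their counts of calls and their median log2 difference (siRNF40 minus siTG2), beside 26.6% of all tested genes called in each direction and a median of -0.01. The lists were not matched for level, and calls grew with level. At means of 1000 to 3000, 39.4% were higher in siRNF40 and 32.1% in siTG2, and from 3000 up 47.1% and 29.2%. Of the 2254 genes from 3000 up, 311 were opposite and higher in siRNF40, and 55 were opposite and lower. Values for list members are means ± SD over 3 libraries. Members given as opposite were called against siControl on both sides, and their direct difference carries no test. Beyond the naming rule, CCND1, CDH1, CTNNB1, DDB2, GDF15, HERC6, HSP90AB1, JARID2, JUNB, KLF6, MDM2, MTF2, MYC, NFE2L2, PPM1D, RNF20, RPL35, RPLP1, SESN2 and TGM4 were named after their values were seen. Scaling to equal totals shifted list medians by about as much as that of all genes. With it the median was -0.40 for the H2B ligase list, -0.52 for serotonin, 0.34 for ribosome biogenesis, 0.20 for mitochondrial ribosomal proteins, 0.19 for the proteasome, 0.33 for heat shock, 0.18 for ATF4, 0.33 for epithelial genes, 0.24 for actin targets, -0.50 for replication and -0.41 for NRF2 genes.

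Of 11 genes for the H2B ubiquitin ligase and the PAF1 complex, 6 were higher in siTG2 and 1 in siRNF40, with a median of -0.22, and RNF40 itself is among the 6. CDC73, a PAF1 complex subunit, had 1529 ± 206 normalized reads in siRNF40 and 2642 ± 237 in siTG2 (log2 difference -0.79, limma adjusted p = 7.3e-07). UBE2A, a conjugating enzyme for H2B, had 1601 ± 126 and 2739 ± 51.1 (log2 difference -0.78, limma adjusted p = 5.1e-08). CTR9, the scaffold of the PAF1 complex, was opposite, with 2706, 3131 and 3651 in siRNF40, siControl and siTG2. RNF20, had 1501 ± 99.4 and 1406 ± 80.1 (limma adjusted p = 0.35).

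Lists for the enzymes that act beside the H2B mark had medians near 0, which turned negative when libraries were scaled to equal totals. For H2B deubiquitinases and the SAGA module the median was 0.08 (-0.09 with equal totals, 0.14 without siTG2 replicate 1, 0.13 without siRNF40 replicate 1), with 6 of 19 genes higher in siRNF40 and 2 in siTG2. For H3K4 and H3K79 methyltransferases it was 0.07 (-0.11 with equal totals, -0.04 with quantile normalization), with 7 of 18 higher in siRNF40 and 5 in siTG2, and it was under 0.05 in size when replicate 1 or 2 of siRNF40 or of siTG2 was left out. DOT1L, the H3K79 methyltransferase, was opposite and had 2413, 2269 and 2515 normalized reads in siRNF40, 1586, 1595 and 1514 in siControl and 835, 938 and 805 in siTG2, with no overlap, although AP3D1 and PLEKHJ1 overlap it on the other strand. WDR5, a shared subunit of the H3K4 methyltransferases, had 2314 ± 193 in siRNF40 and 1284 ± 81.1 in siTG2 (log2 difference 0.85, limma adjusted p = 4.4e-08). Elongation factors had a median of 0.11 (-0.07 with equal totals, 0.07 without siRNF40 replicate 3, 0.06 without siTG2 replicate 1), with 8 of 21 higher in siRNF40 and 4 in siTG2. HEXIM1, the inhibitor of the elongation kinase P-TEFb, was opposite in the other direction, with 3242, 2896 and 3008 in siRNF40, 4075, 3741 and 3898 in siControl and 6396, 7578 and 6458 in siTG2.

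On the TG2 side, 3 of 8 transglutaminase genes passed the level tested, and all 3 were higher in siRNF40. Besides TGM2, they were TGM1, with 153 ± 29.9 normalized reads in siRNF40 and 88.4 ± 17.3 in siTG2 (limma adjusted p = 0.0067), and TGM4, with 32.6, 48.1 and 37.4 in siRNF40, 5.52, 2.85 and 14.5 in siControl and 5.65, 0.0 and 0.0 in siTG2. TGM4 passed the level tested only through siRNF40, with group means of 39.4 in siRNF40, 7.61 in siControl and 1.88 in siTG2. TGM2 is itself an siRNA target. The filter therefore favoured the call of TGM4 and the knockdown that of TGM2, so the shared direction of this list is no separate result. Of 8 tested serotonin genes, 5 were higher in siTG2 and 2 in siRNF40, with a median of -0.35. Their median against siControl was -0.40 for siRNF40 and -0.16 for siTG2. MAOA, the monoamine oxidase that breaks serotonin down, was opposite, with 371, 380.1 and 392 in siRNF40, 567, 608 and 509 in siControl and 738, 756 and 702 in siTG2. TPH1, the tryptophan hydroxylase that makes serotonin outside the brain, had 105 ± 31.3 in siRNF40 and 60.4 ± 9.45 in siTG2 (log2 difference 0.76, limma adjusted p = 0.024).

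Genes that build ribosomes and respiratory chains were higher in siRNF40 than in siTG2. Of 75 cytosolic ribosomal protein genes, 73 were higher in siRNF40 and 1 in siTG2, with a median of 0.84. Quantile normalization gave 63 and 1 with a median of 0.47. The median against the mean of siTG2 was 0.92, 0.74 and 0.67 in siRNF40 replicates 1, 2 and 3, and replicate 1 was also the library with the highest RN7SL2. Whether these are related was not tested. These genes have many processed copies, and how the counting treated reads shared with them, or used strand, is not given in the sources used here. Of this list, 15 genes were opposite, RPL35 and RPLP1 with the largest differences. RPLP1 had 38388, 29844 and 27468 normalized reads in siRNF40, 22838, 24242 and 20263 in siControl and 11858, 16529 and 16111 in siTG2.

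Among ribosome biogenesis genes, 32 of 45 were higher in siRNF40 and 4 in siTG2 (median 0.52), and 13 were opposite, all higher in siRNF40. NHP2, a protein of box H/ACA small nucleolar particles, had 2057, 1687 and 1552 normalized reads in siRNF40, 768, 848 and 901 in siControl and 523, 672 and 584 in siTG2. Mitochondrial ribosomal proteins had 48 of 75 higher in siRNF40 and 3 in siTG2 (median 0.37), with 10 opposite. MRPL34 had 1390.0 ± 83.7 in siRNF40 and 533 ± 95.2 in siTG2, with a siControl mean of 849.9. Nuclear-encoded respiratory chain genes had 59 of 73 higher in siRNF40 and 1 in siTG2 (median 0.59), with 9 opposite. Here too siRNF40 replicate 1 was highest, with medians against the mean of siTG2 of 0.72, 0.60 and 0.48 in replicates 1, 2 and 3. COX7B, a subunit of cytochrome c oxidase, had 2421 ± 379 and 980.3 ± 192, and NDUFV1, a complex I subunit, had 4782 ± 200.1 and 2158 ± 93.1. By contrast ATP5B, with 22091 ± 1249 and 22158 ± 1286, did not pass (limma adjusted p = 0.96).

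Protein folding and turnover genes leaned the same way, with the endoplasmic reticulum as the exception. Proteasome subunits had 24 of 32 higher in siRNF40 and 4 in siTG2 (median 0.37), of which 6 were opposite, PSMD3 among them. Cytosolic heat shock chaperones had 19 of 27 and 4 (median 0.51, or 0.30 with quantile normalization). The 9 opposite genes there include HSF1, the heat shock transcription factor, HSP90AB1 and 5 subunits of the CCT chaperonin. DNAJB1, a co-chaperone of HSP70, had 16453, 15373 and 16135 normalized reads in siRNF40, 8627, 8717 and 8403 in siControl and 5937, 6501 and 6239.6 in siTG2. Chaperones and unfolded protein response genes of the endoplasmic reticulum had 4 of 25 higher in siRNF40 and 16 in siTG2 (median -0.24, or -0.41 with quantile normalization and with equal totals). Both knockdowns were below siControl, with medians of -0.52 for siRNF40 and -0.19 for siTG2. Summed levels were 330716 to 345482 normalized reads in siRNF40, 342792 to 359042 in siTG2 and 432001 to 440692 in siControl. CANX, the lectin chaperone calnexin, had 20912 ± 1446 in siRNF40 and 50821 ± 2554 in siTG2 (log2 difference -1.28, limma adjusted p = 7.0e-12).

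Replication-dependent histone genes were the list with the highest median after the transglutaminases. Of 26 tested, 15 were higher in siRNF40 and 0 in siTG2, with a median of 1.24. Both knockdowns were above siControl, with medians of 1.78 for siRNF40 and 0.50 for siTG2. None was opposite. HIST1H2BD had 2905 ± 254 normalized reads in siRNF40 and 824 ± 7.63 in siTG2 (log2 difference 1.81, limma adjusted p = 1.3e-11), and 564 in siControl. These genes are near copies of each other and most of their RNA lacks a poly(A) tail, so polyadenylated RNA holds only part of it.

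Targets of p53 were higher in siRNF40 in 24 of 32 genes and in siTG2 in 6 (median 0.58). CDKN1A, the CDK inhibitor p21, had 79474, 67900.3 and 75569.9 normalized reads in siRNF40 and 20456, 22657 and 20781 in siTG2 (log2 difference 1.80, SE 0.07, limma adjusted p = 2.7e-13), with siTG2 libraries on both sides of the siControl values of 21721, 21949.6 and 21029.9. BBC3, the pro-apoptotic protein PUMA, was opposite, with 2759, 2641 and 3169 in siRNF40, 1248, 1179.7 and 1187 in siControl and 826, 983 and 968 in siTG2. MDM2, the ligase that degrades p53, was opposite too and had 11587, 11617 and 10101 in siRNF40, 7930.2, 7176 and 7785 in siControl and 5722, 5089 and 5446 in siTG2. Among the 7 opposite genes of this list were also GDF15, PPM1D, PLK3, DDB2 and SESN2, all higher in siRNF40.

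Cell division genes were higher in siTG2 than in siRNF40, while their list medians lay below siControl in both knockdowns. Of 47 genes for mitosis and G2/M, 40 were higher in siTG2 and 3 in siRNF40, with a median of -0.66, and none was opposite. The median against siControl was -0.83 for siRNF40 and -0.26 for siTG2. ANLN, the contractile ring protein anillin, had 1399 ± 139 normalized reads in siRNF40 and 4635 ± 233 in siTG2 (log2 difference -1.73, limma adjusted p = 1.4e-12). CCNB2, a mitotic cyclin, had 1674 ± 39.2 and 1823 ± 68.8 and did not pass (limma adjusted p = 0.14). Cohesion and condensin genes had 16 of 24 higher in siTG2 and 0 in siRNF40 (median -0.42). Their median against siControl was -0.73 for siRNF40 and -0.19 for siTG2. ESCO2, which acetylates cohesin in S phase, had 271 ± 33.3 and 888 ± 49.9 (log2 difference -1.72, limma adjusted p = 2.1e-10).

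Homologous recombination and Fanconi genes had 21 of 30 higher in siTG2 and 2 in siRNF40 (median -0.52). Both knockdowns were below siControl, with medians of -0.85 for siRNF40 and -0.30 for siTG2. BARD1, the partner of BRCA1, had 330.0 ± 60.3 normalized reads in siRNF40 and 1142 ± 137 in siTG2 (log2 difference -1.80, limma adjusted p = 6.8e-10), while RAD50 had 3362 ± 217 and 3371 ± 258 (limma adjusted p = 0.98). Replication and S phase genes had 27 of 49 higher in siTG2 and 8 in siRNF40 (median -0.32), and PCNA, the sliding clamp, did not pass, with 4419 ± 231 and 4148 ± 150.0 (limma adjusted p = 0.24). This list too was below siControl in both, with medians of -0.77 for siRNF40 and -0.45 for siTG2. E2F and pocket protein genes had 9 of 13 higher in siTG2 and 2 in siRNF40 (median -0.40, or -0.02 over the 7 genes without either word). Their medians against siControl were -0.55 for siRNF40 and -0.17 for siTG2. In that list 1 gene was opposite in each direction. E2F3, an activator, had 1442 in siRNF40, 2315 in siControl and 2829 in siTG2, and E2F4, which acts mainly as a repressor, had 3666, 2907 and 1957.

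PRC2 and DNA methylation genes had 12 of 18 higher in siTG2 and 4 in siRNF40 (median -0.52), with opposite genes in both directions. Their median against siControl was -0.38 for siRNF40 and -0.07 for siTG2. KDM6B, the demethylase that removes the PRC2 mark, had 6501, 6608 and 7026 normalized reads in siRNF40, 4332, 4325 and 3899 in siControl and 2766, 2749.7 and 2553 in siTG2. PHF19, a PRC2 accessory subunit, had 1072, 1048 and 1135 in siRNF40, 1683, 1715 and 1716 in siControl and 2566, 2534 and 2329 in siTG2. So KDM6B and PHF19 moved in opposite directions, with no overlap of groups in either gene. The other opposite genes of this list were split as well. JARID2 had means of 3431, 3026 and 2396 in siRNF40, siControl and siTG2, and MTF2 had 1938, 2284 and 2899. SUZ12, a core subunit, had 1629 ± 209.8 in siRNF40 and 3435 ± 236 in siTG2 (log2 difference -1.08, limma adjusted p = 8.8e-09).

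Interferon-stimulated genes had the lowest median of the lists described, -1.01, with 28 of 35 higher in siTG2 and 1 in siRNF40. The medians against siControl were -0.78 for siRNF40 and 0.19 for siTG2. IFIT1, an antiviral RNA-binding protein, was opposite and had 76.5, 122 and 65.1 normalized reads in siRNF40, 310.3, 365 and 339 in siControl and 479.5, 438 and 607 in siTG2. IFI6 and HERC6 were also opposite in this direction. ISG15, a ubiquitin-like protein and a standard member of this response, had 2660.3 ± 182 in siRNF40 and 2731 ± 341 in siTG2 and did not pass (limma adjusted p = 0.79).

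Wnt feedback and target genes split. Of 20 tested, 11 were higher in siTG2 and 5 in siRNF40 (median -0.52). NOTUM, a secreted inhibitor that removes the lipid from Wnt ligands, had 127, 98 and 72.6 normalized reads in siRNF40, 277, 275 and 301 in siControl and 753, 879.9 and 736 in siTG2. DKK1, a secreted inhibitor that blocks the Wnt coreceptor, ran in the opposite sense with 3115, 3763 and 3312 in siRNF40, 2330.1, 2511 and 2437 in siControl and 940.2, 919.5 and 969.6 in siTG2. AXIN2, a feedback component of the destruction complex, had 143 ± 25.4 in siRNF40 and 439 ± 22 in siTG2 (log2 difference -1.63, limma adjusted p = 1.7e-07). The classical growth targets were among the opposite genes higher in siRNF40. MYC had 10123, 9304 and 9469 in siRNF40, 5509.5, 5943 and 5982 in siControl and 3608, 3756 and 3999 in siTG2, and CCND1, cyclin D1, had 26008, 26804 and 25418 in siRNF40, 23267, 22417 and 23559.7 in siControl and 14692, 13986 and 14309 in siTG2. Beta-catenin itself (CTNNB1) had the reverse order, with means of 9719, 11353 and 13883.

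RAS-ERK outputs had no common direction, with 8 of 23 higher in siRNF40 and 9 in siTG2, and a median of 0.11 that was -0.01 with quantile normalization, -0.07 with equal totals, -0.09 without siRNF40 replicate 2 and -0.10 without siTG2 replicate 2. It was 0.02 without siRNF40 replicate 1 and 0.16 without siTG2 replicate 3. MAPK3, the kinase ERK1, was opposite and had 1256, 1190.3 and 1548 normalized reads in siRNF40, 949.7, 958 and 928 in siControl and 359.9, 361 and 407 in siTG2. EPHA2, an ephrin receptor, had 35669, 36025 and 37007 in siRNF40, 22229, 22591 and 22281 in siControl and 13878, 13065 and 13759 in siTG2. NRAS went the other way, with 1818 ± 167 in siRNF40 and 5808 ± 383 in siTG2 (log2 difference -1.68, limma adjusted p = 1.6e-12), and its siControl mean was 6409. AP-1 and immediate early genes did lean one way, with 18 of 22 higher in siRNF40 and 3 in siTG2 (median 0.69). JUND had 5794, 5061 and 5484 in siRNF40, 3097, 2874 and 2471 in siControl and 1365, 1777 and 1619 in siTG2, and MAFF, DUSP1, JUNB and KLF6 were opposite in the same direction.

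**Figure D4:**
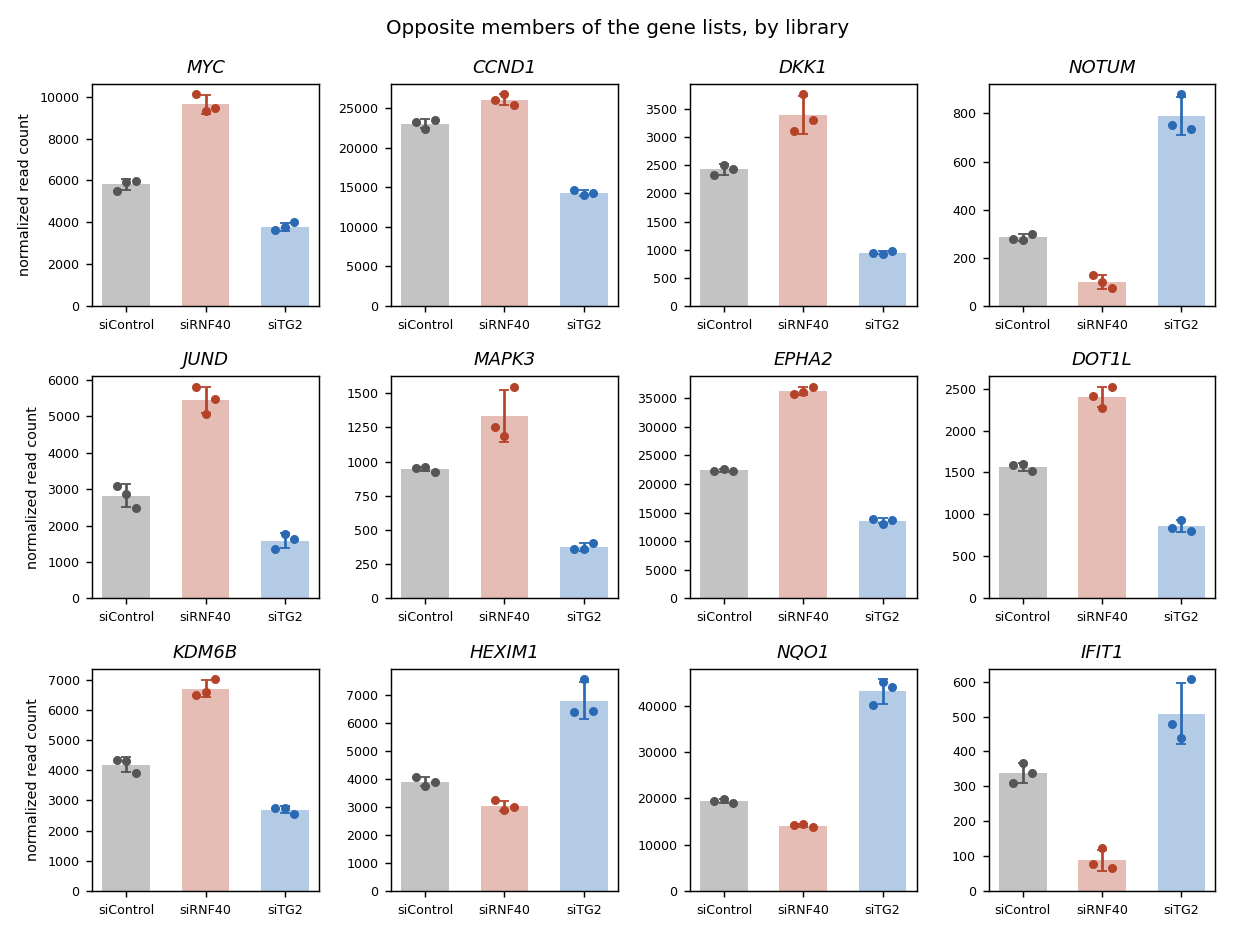
Normalized read counts of 12 opposite genes from the lists, with bars at the group means, error bars of 1 SD and 1 point per library (n = 3). In the panels of MYC, CCND1, DKK1, JUND, MAPK3, EPHA2, DOT1L and KDM6B siRNF40 is highest, and in those of NOTUM, HEXIM1, NQO1 and IFIT1 siTG2 is highest.

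TGF-beta pathway genes had 14 of 24 higher in siTG2 and 4 in siRNF40 (median -0.49). TGFBR3, the coreceptor betaglycan, was opposite and had 117, 76.8 and 54.4 normalized reads in siRNF40, 247, 233 and 218 in siControl and 429, 407 and 417 in siTG2. TGFBR1, a signalling receptor, had 1081 ± 156 in siRNF40 and 3053 ± 254 in siTG2 (log2 difference -1.50, limma adjusted p = 1.8e-10). In this list 9 of 24 genes hold GTCTTCA in the 3′ UTR, TGFBR3 among them, and the median of the 13 genes without either word was 0.02.

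Mesenchymal and matrix genes and epithelial genes stood on opposite sides. Of 17 mesenchymal and matrix genes tested, 8 were higher in siTG2 and 2 in siRNF40 (median -0.45, or -0.26 without siRNF40 replicate 2, -0.22 without siTG2 replicate 2 and -0.25 over the 12 genes without either word). FN1, fibronectin, which TG2 binds at the cell surface, was opposite and had 499.7, 631 and 430.1 normalized reads in siRNF40, 826, 760.2 and 820.2 in siControl and 1932, 1808 and 1928 in siTG2. ZEB1, a repressor of epithelial genes with GTCTTCA in its 3′ UTR, had 291, 417 and 308 in siRNF40, 642, 547 and 629 in siControl and 994, 919 and 1027 in siTG2. Of the fibroblast markers, the summed level was 1508 to 1896 normalized reads in siRNF40 and 1128 to 1323 in siTG2, and nearly all of it was COL1A1, with means of 1463 in siRNF40 and 1049.7 in siTG2. ACTA2 and PDGFRB were not called.

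Epithelial junction and keratin genes had 22 of 38 higher in siRNF40 and 7 in siTG2 (median 0.51), with 12 opposite genes higher in siRNF40 and 2 lower. JUP, the desmosome and adherens junction protein plakoglobin, had 11009, 10948 and 12523 normalized reads in siRNF40, 7151, 7536 and 6812 in siControl and 3879.7, 4245 and 4008 in siTG2. CDH1, E-cadherin, had 7105, 7219 and 7369 in siRNF40, 5288, 5093 and 5155 in siControl and 4242, 4098 and 4286 in siTG2. CLDN7 had 8897 ± 1049 in siRNF40 and 3862 ± 458 in siTG2. CLDN3 ran against CLDN7, with 185, 179 and 239 in siRNF40, 372, 338 and 286 in siControl and 444, 605 and 557 in siTG2. The summed level of colon epithelial markers given above moved with this list, but EPCAM, KRT8, KRT18, KRT19, CDH1, CLDN3, CLDN4 and CLDN7 are in both, so the sum is no separate measurement. Actin and SRF targets had 11 of 22 higher in siRNF40 and 4 in siTG2 (median 0.41). ACTN4, an actin cross-linker, had 28994 ± 1247 and 13784 ± 273, and MYH10, a nonmuscle myosin, ran the other way with 1181 ± 15.2 and 2509.7 ± 139.9.

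Metabolic lists were mixed. Glycolysis genes had 13 of 24 higher in siRNF40 and 8 in siTG2, with a median of 0.21 that was 0.03 with equal totals, 0.02 with quantile normalization and 0.37 over the 15 genes without either word. GPI, the isomerase of the second step, was opposite with 11347 ± 1116 normalized reads in siRNF40 and 5038 ± 182 in siTG2. The lactate dehydrogenases went the other way. LDHA had 5386 ± 258 and 14615 ± 892 (log2 difference -1.44, limma adjusted p = 1.4e-12), and LDHB had 6142 ± 583 and 19859.5 ± 1468 (log2 difference -1.69, limma adjusted p = 1.2e-12). ATF4 amino acid response genes had 23 of 37 higher in siRNF40 and 9 in siTG2, with a median of 0.35 that was 0.04 with quantile normalization. ALDH18A1, which starts proline synthesis from glutamate, ran against the list, with 1316 ± 57.5 and 3134 ± 72.7 (log2 difference -1.25, limma adjusted p = 2.8e-11).

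NRF2 and glutathione genes had 8 of 25 higher in siRNF40 and 10 in siTG2, with a median of -0.23 that was 0.07 once genes with means under 100 were left out and -0.15 without siRNF40 replicate 2. NQO1, a quinone reductase and classical NRF2 target, was opposite and had 14176, 14483 and 13727 normalized reads in siRNF40, 19377, 19789 and 19097 in siControl and 40178, 45174 and 44127 in siTG2. TXNRD1, thioredoxin reductase and also an NRF2 target, ran the other way with 62198, 64536 and 58365 in siRNF40, 45664, 44823 and 47912 in siControl and 35939, 31621 and 34525 in siTG2. The groups of both genes were apart. NFE2L2, which encodes NRF2, had 5719 ± 398 in siRNF40 and 6132 ± 231 in siTG2 (limma adjusted p = 0.2).

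Sterol and fatty acid genes had medians near 0 whose sign changed with the setting. The median was 0.06 for fatty acid genes, -0.12 with equal totals, 0.03 without siRNF40 replicate 3, 0.09 without siTG2 replicate 1 and 0.04 without siTG2 replicate 3. For cholesterol genes it ran from -0.18 with equal totals to 0.04 without siRNF40 replicate 3. ACSL4, an activator of long unsaturated fatty acids, was opposite with 5015 ± 689 in siRNF40 and 2052 ± 224 in siTG2, and its relative ACSL3 went the other way with 2342 ± 294 and 6672 ± 203 (log2 difference -1.52, limma adjusted p = 1.2e-11).

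**Figure D5:**
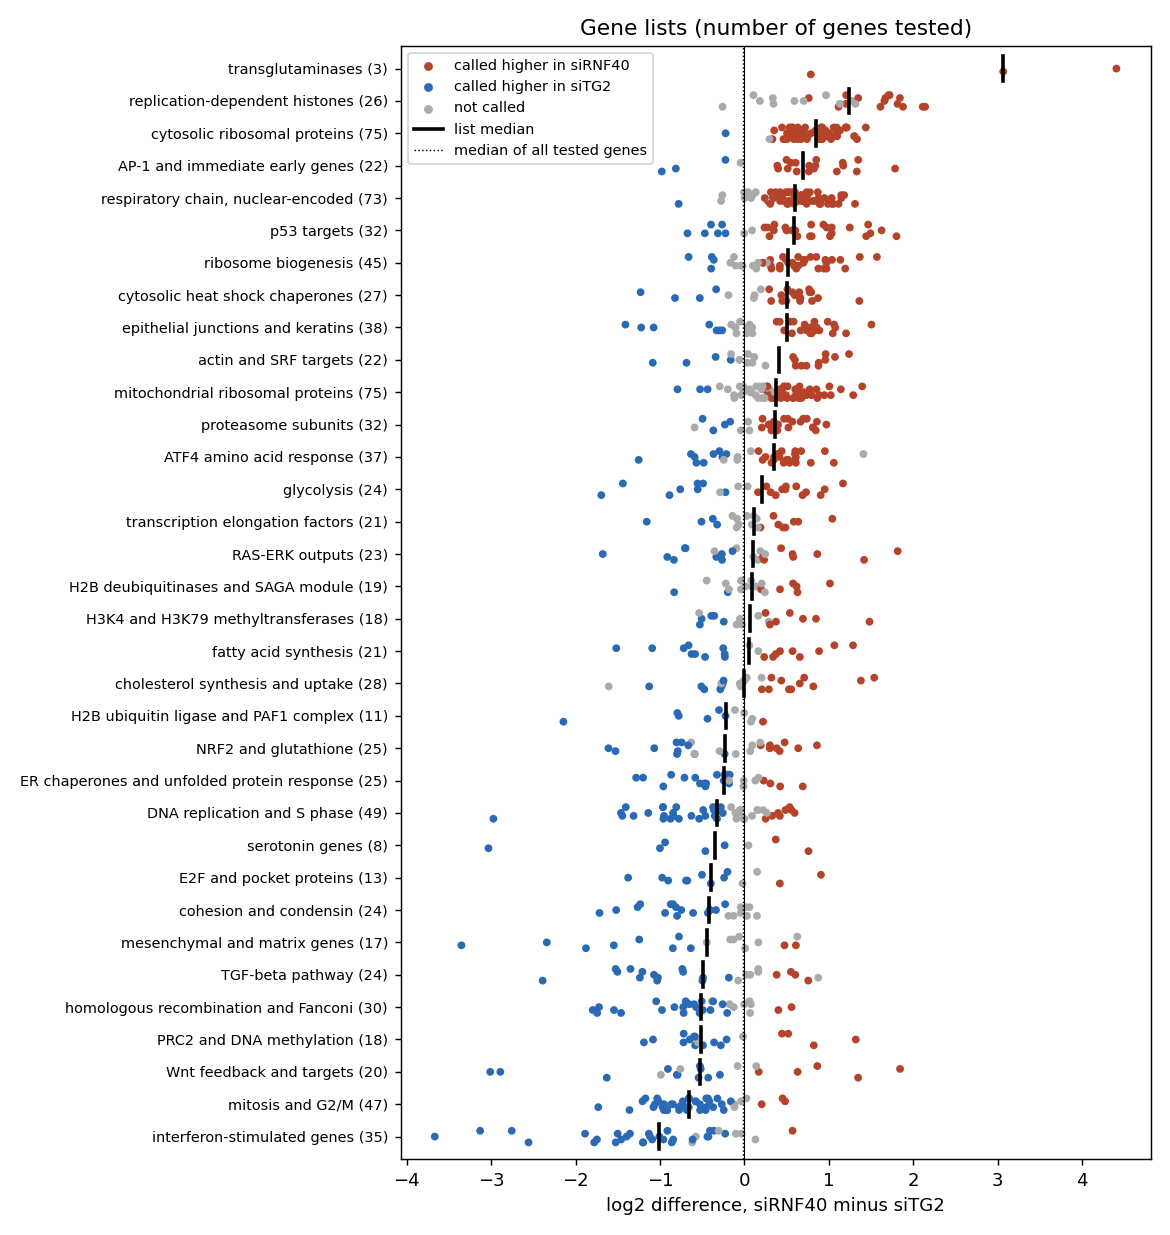
Each point is a tested gene of a list, placed by its log2 difference (siRNF40 minus siTG2) and coloured by its call, with a thick bar at the list median and a dotted line at the median of all tested genes (-0.01). The medians run from -1.01 for interferon-stimulated genes to 1.24 for replication-dependent histones, with the median of the 3 transglutaminase genes, 3.07, above them. That median is the value of TGM2, an siRNA target, and the lowest of the 3 genes is at 0.79.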

How the data were processed

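Polyadenylated RNA of 9 HCT116 libraries (3 siControl, 3 siRNF40, 3 siTG2) was analysed from tables made by the authors. The submitters' processing notes name Trim Galore 0.4.1, STAR 2.7.0, HTSeq 0.12.4 and DESeq2, and the builds hg19 and hg38 with no role. Per the file headers, the deposited signal was normalized counts, which are reads per gene divided by 1 size factor per library by the authors with DESeq2. All values came back as whole reads within 0.001 after undoing that division. The authors also deposited, against siControl, log2 fold changes, p-values and adjusted p-values, and a score, the DESeq2 Wald statistic, per the file headers. These tables served only to count opposite calls.

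Genes with a mean of at least 10 were tested on log2(value + 1), a scale that understates changes of low genes, with limma 3.58.1 (R 4.3.3), all 9 libraries in 1 fit, and Benjamini-Hochberg adjustment over 17663 genes. The script was tested on simulated data. Differences are siRNF40 minus siTG2. Alternatives were edgeR 4.0.16 and DESeq2 1.42.0 on the recovered reads, other scalings, filters and pseudocounts, a replicate block, and each library left out. Depth was 29161285 to 35743918 reads per library.

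Named genes were both targets, the 12 opposite genes of each kind with the largest difference, up to 8 genes a side of the direct comparison (opposite ones are given only once), and in each list up to 4 called genes and up to 2 uncalled ones, not all of which are printed. The first 2 sets needed a mean of at least 100 and libraries that did not overlap, and list genes called a mean of at least 50. Pseudogenes, antisense genes, ribosomal proteins and small RNAs were passed over outside the lists. The opposite genes, lists and words were chosen with earlier results of these data known. Of 1579 list entries, 11 were not found. Sequences and gene models are from GENCODE 29 on GRCh38. Some list members are not reported here.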

Additional observations from a re-analysis of the deposited data

Results flagged for a closer look

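Genes under the level tested also differed between the groups. Of the 46014 genes with a mean under 10 normalized reads, which enter none of the comparisons, 9473 to 9949 had at least 1 read in the siTG2 libraries. The siRNF40 libraries had 7673 to 7913 and the siControl libraries 7541 to 7815. The lowest siTG2 library thus stood above all 3 control libraries. These genes had too few reads to be described one by one, and the difference was not tested.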

How the results depend on the processing

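Direction and call of RNF40 and TGM2 were the same in each of the settings tried, with log2 differences of -2.32 to -2.08 and 2.67 to 3.35. Scaling to equal totals gave 514 opposite genes higher in siRNF40 and 975 lower, and asking for at least 1.5-fold on both sides gave 118 and 139. Leaving out 1 library gave 648 to 960 of the first kind and 312 to 525 of the second, and in the direct comparison 4270 to 4658 genes higher in siRNF40 and 4126 to 4687 higher in siTG2. Leaving out the genes with either word, a setting chosen after seeing the data, gave 3589 genes higher in siRNF40 and 2759 higher in siTG2, with 664 opposite genes of the first kind and 245 of the second. Otherwise edgeR gave 817 and 544, DESeq2 942 and 541, quantile normalization 776 and 665, and the calls in the authors' deposited tables made 891 and 476 opposite genes. Of 680 list medians under other settings, 603 stayed within 1 SD over libraries of the reported value and 77 moved further. Leaving out 1 or all siControl libraries, or adding a replicate block, cannot move a direct difference, so part of the 603 was fixed in advance. All 551 values of 29 named genes kept direction and call in the direct comparison. In the settings just named only their calls could have changed. Same-numbered libraries did not regularly deviate together (r from -0.318 to 0.263 over 9 pairs, 1 of them over 0.1). Differently numbered pairs had r from -0.255 to 0.252. With 3 libraries a group, this cannot settle whether the numbers pair the samples. A replicate block gave 4594 and 4609 direct calls and 822 and 426 opposite genes. The cause of these shifts was not tested. Low genes carry few reads, so differences among them were often not detectable at this depth.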
